A study of Mus musculus with 2 samples.

Results

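*Cxcl1*, *Cxcl2* and *Cxcl3* encode chemokines that attract neutrophils, *Cxcr2* encodes the receptor they act on, and *Pf4* encodes platelet factor 4 (CXCL4), a chemokine whose gene lies beside theirs. These 5 of the 27031 genes in the count table were picked by name, with earlier results of these data known. They were followed across cell classes and treatment groups. CD45+ cells came from subcutaneous MC38 tumors of female C57BL/6 mice given vehicle (control) or telmisartan, an angiotensin receptor blocker. Cells of 5 mice were pooled per group, and both groups went through 1 capture. The groups have no replicates, so no test was made. Intervals are exact 95% intervals and cover counting error only.

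CXCL1, CXCL2 and CXCL3 share a Glu-Leu-Arg motif and draw neutrophils out of the blood through CXCR2. Macrophages produce them when Toll-like receptors, TNF or interleukin-1 activate NF-kB, and their mRNAs are short-lived. PF4 lacks that motif, binds heparin and other glycosaminoglycans, and is stored in platelet granules, although macrophages also transcribe its gene.

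Of 8969 cells, 8049 were macrophage-like, 663 dendritic-like, 186 T-like and 71 neutrophil-like. Both T-like clusters had 13 of 13 T cell markers at least 4-fold above other cells but none among their 10 leading genes. Those of the larger cluster (142 cells) held 1 gene of the natural killer cell list, *Eomes*, so the name is tentative. In T-like cells T cell markers summed to 6658 CPM and natural killer cell markers to 166. *Cxcl1* was highest in macrophage-like cells, at 603 CPM (UMIs per 1000000; interval 597 to 609), against 116 in neutrophil-like, 58.3 in T-like and 56.0 in dendritic-like cells. The other ligands peaked in the few neutrophil-like cells. *Cxcl2* reached 41473 CPM there (40407 to 42560), 4.15% of their UMIs and 9.75 times the 4255 of macrophage-like cells, with 928 in dendritic-like and 474 in T-like cells. *Cxcl3* reached 7358 CPM (6913 to 7824) in neutrophil-like cells, 18.7 times the 394 of macrophage-like cells, and was at 14.0 and 28.0 in dendritic-like and T-like cells. Neutrophil-like cells thus had the richest *Cxcl2* and *Cxcl3* transcript pools per UMI, but being few and shallow (median 1746 UMIs per cell, against 7558) they held 1.95% of all *Cxcl2* and 3.73% of all *Cxcl3* UMIs. Macrophage-like cells held 99.1% of the *Cxcl1*, 96.3% of the *Cxcl2* and 95.9% of the *Cxcl3* UMIs, against 91.7% of all UMIs.

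**Figure D1:**
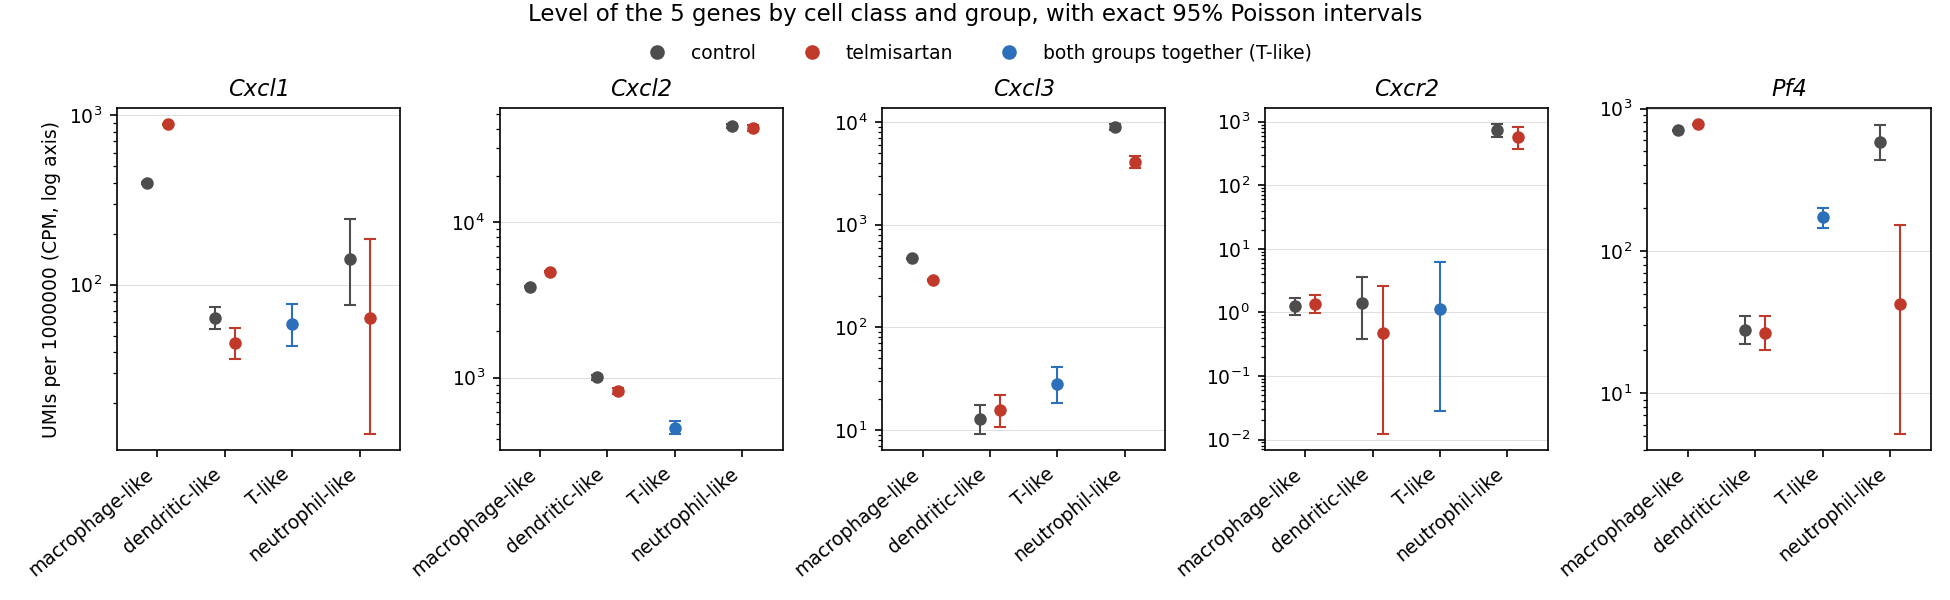
Level of each gene by cell class, in CPM on a log axis; points are the summed UMIs of a class in control or telmisartan (T-like cells: both groups together) and bars are exact 95% Poisson intervals. *Cxcl1* was highest in macrophage-like cells (397 in control, 881 in telmisartan), *Cxcl2*, *Cxcl3* and *Cxcr2* in neutrophil-like cells, and the neutrophil-like *Pf4* point of control holds 49 UMIs from 1 cell.

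In macrophage-like cells *Cxcl1*, which encodes the ligand also called KC, stood at 397 CPM in control and 881 in telmisartan, a log2 ratio of 1.15 (1.12 to 1.18). Of the 11074 genes with at least 100 UMIs in these cells, 99.2% had a ratio at or below it, which placed *Cxcl1* among the most raised. At equal depth (each cell thinned to 1000 UMIs) it was found in 15.1% of control and 27.7% of telmisartan cells. The share in T-like cells, given for comparison, was 3.49% (median depths before thinning 7558 and 3264.5 UMIs). More cells carried the transcript in telmisartan, and it was less concentrated: the richest 10% of cells held 85.3% of *Cxcl1* UMIs in control and 66.8% in telmisartan.

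*Cxcl2*, the most widely detected of the ligands, was at 3845 CPM in control and 4809 in telmisartan macrophage-like cells, a log2 ratio of 0.32 (0.31 to 0.33) that turned to -0.09 as UMIs per cell without scaling and fell to 0.02 with clusters weighted alike. Thinned cells with *Cxcl2* made up 69.8% of control and 83.0% of telmisartan cells, and 29.7% of T-like cells. At least 5 *Cxcl2* UMIs among 1000 were found in 33.3% and 40.1%, and at least 20 in 102 of 4009 and 157 of 3923 cells, and the richest 10% of cells held 40.5% and 37.8% of its UMIs. Its difference was thus small beside that of *Cxcl1* and ran from poor to rich cells.

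*Cxcl3* went the other way, with 471 CPM in control and 291 in telmisartan macrophage-like cells, a log2 ratio of -0.69 (-0.73 to -0.66), and 1.18% of genes had a ratio at or below it. The share of thinned cells with the transcript was nearly level, 15.7% in control and 13.9% in telmisartan (T-like cells 2.91%). Cells rich in it were fewer in telmisartan: 3.89% of control and 1.81% of telmisartan cells had at least 5 *Cxcl3* UMIs among 1000, and 1.05% and 0.280% had at least 10. For *Cxcl1*, 2.59% of control and 5.43% of telmisartan cells had at least 5. The lower *Cxcl3* level therefore lay in the rich cells. A mean of ln(1 + UMIs per 10000), which gives rich cells little weight, put its log2 ratio at -0.14, level with the -0.17 of the median gene on that scale.

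**Figure D2:**
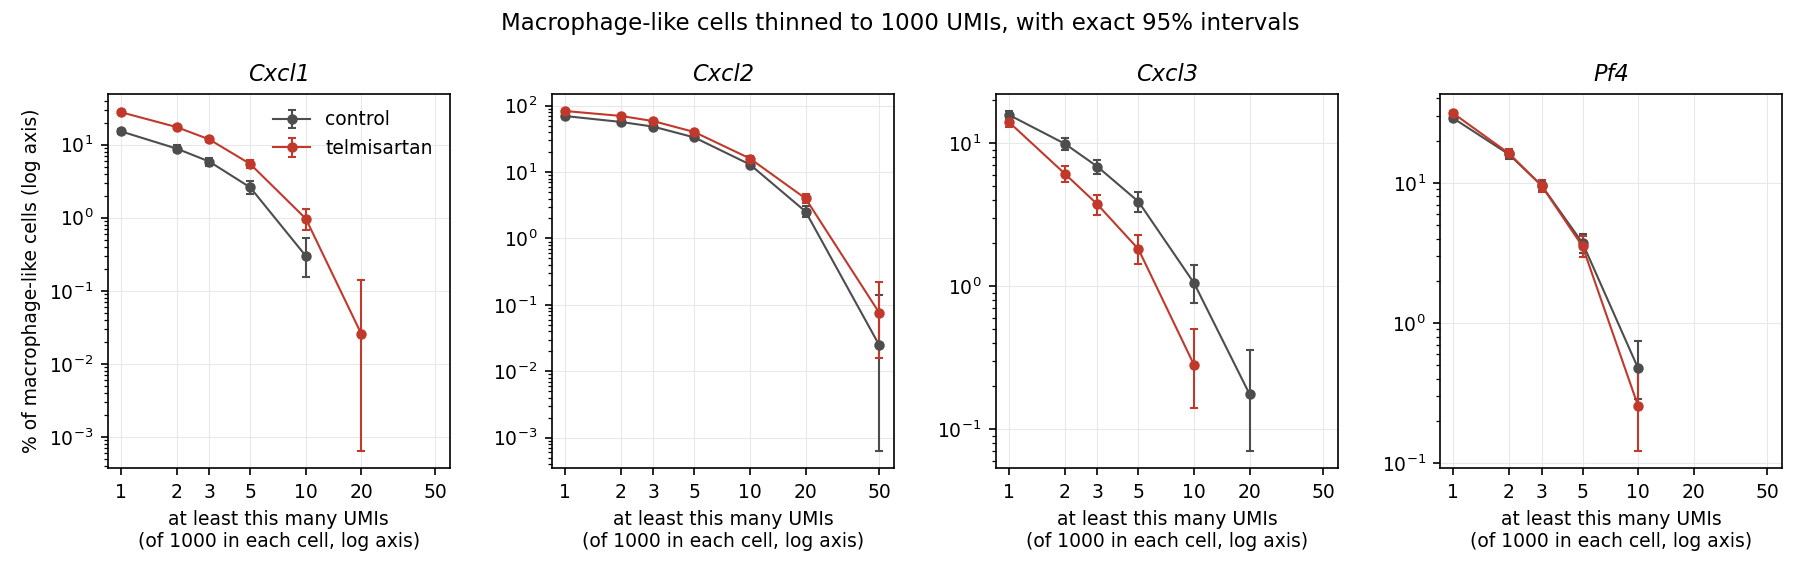
Percent of macrophage-like cells (log axis) with at least a given number of UMIs of a gene (log axis) after each cell was thinned to 1000 UMIs, for control (4009 cells) and telmisartan (3923 cells), with exact 95% intervals; points at 0 are not drawn. The telmisartan curve lies above control for *Cxcl1* at each number drawn for both and below it for *Cxcl3*, with 3.89% and 1.81% of cells at 5 or more *Cxcl3* UMIs, and the *Pf4* curves nearly coincide up to 5.

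Among the 4 of the 5 genes with at least 100 UMIs in macrophage-like cells, 1 (*Cxcl1*) was at least 1.5-fold higher in telmisartan and 1 (*Cxcl3*) at least 1.5-fold lower, where 4.77% and 2.24% of all genes were (528 and 248 genes). Of those called genes 68.0% were higher in telmisartan, a share of 33.8% with ln(1 + UMIs per 10000) and of 4.27% as UMIs per cell without scaling. The median log2 ratio of all genes was -0.05 on CPM, -0.17 on the ln scale and -0.46 without scaling. Relative to that median on CPM, *Cxcl1* lay at 1.20, *Cxcl2* at 0.37, *Pf4* at 0.19 and *Cxcl3* at -0.65, which are by construction also the distances without scaling. On the ln scale they lay at 1.00, 0.39, 0.23 and 0.03. *Cxcl1*, *Cxcl2* and *Pf4* thus lay above the median gene on CPM and on the ln scale, and *Cxcl3* lay below it on CPM but not on the ln scale.

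The ligands were found together in single cells. Of thinned macrophage-like cells with *Cxcl3*, 96.8% also had *Cxcl2*, against 72.8% of those without, and of cells with *Cxcl1* 93.5% had *Cxcl2*, against 71.7%. *Cxcl1* and *Cxcl3* were each found in fewer cells than *Cxcl2*, and also met above the share in cells without the other. Of cells with *Cxcl1*, 32.9% in control and 21.5% in telmisartan had *Cxcl3*, against 12.6% and 11.1% of cells without *Cxcl1*. Of cells with *Cxcl3*, 31.8% in control and 42.6% in telmisartan had *Cxcl1*, against 12.04% and 25.3% of cells without *Cxcl3*. Cells with none of the 3 ligands made up 28.6% in control and 15.0% in telmisartan, and cells with all 3 made up 4.96% and 5.84%. *Cxcl2* was thus near-constant in cells that carried either of the other ligands.

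Macrophage-like cells fell into 6 subclusters, made without the 5 genes. All 3 ligands peaked in subcluster 5, led by *Serpinb2*, *Il6* and *Mirt2*, at 1955 CPM for *Cxcl1*, 11934 for *Cxcl2* and 2459.6 for *Cxcl3*. In that subcluster *Cxcl1* (1865 in control, 2031 in telmisartan) and *Cxcl2* (11554 and 12257) differed little, and *Cxcl3* was at 3492 in control and 1581 in telmisartan (log2 ratio -1.14). *Cxcl1* was higher in telmisartan in 6 of 6 subclusters (lower in 2 of 11 at a resolution of 0.6), with ratios from 0.12 in subcluster 5 to 1.61 in subcluster 6, led by *Serpina3g*, *Serpina3f* and *Iigp1*. *Cxcl2* was higher in 5 (lower in 3 of the 11), with the largest ratio, 0.76, in subcluster 3, led by *Ifit3*, *Ifit2* and *Ifit1*, and level in subcluster 1 (-0.01; *Lilra6*, *Dcstamp*, *Cd24a*). *Cxcl3* was lower in 5 (and in 8 of the 11), most in subcluster 1 (-1.20), and higher (0.55) in the dividing cells of subcluster 4. In subcluster 6 it was nearly level (-0.03), with an interval that includes 0 (-0.42 to 0.35). At a resolution of 0.3, which gave 5 subclusters, all 3 ligands peaked in one led by *Ifit3*, *Rsad2* and *Ifit2* (*Cxcl1* 964 CPM). *Cxcl1* thus differed most outside the ligand-rich subcluster 5, whereas the largest *Cxcl3* ratios were those of subclusters 1 and 5.

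**Figure D3:**
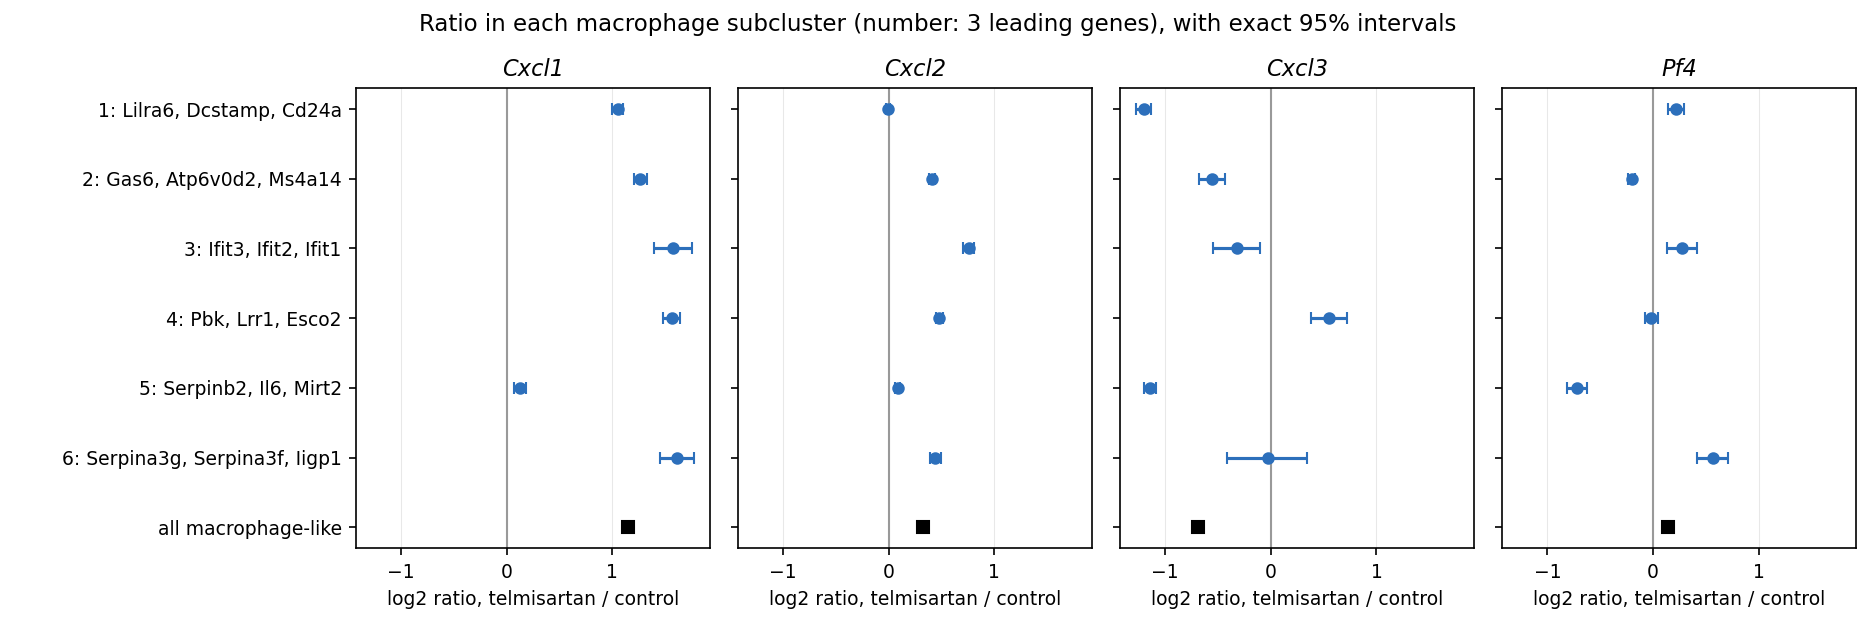
Log2 ratio of telmisartan to control, on CPM, in 6 macrophage subclusters (circles; 3 leading genes at the left) and in all macrophage-like cells (squares), with exact 95% intervals of counts. *Cxcl1* lies above 0 in 6 of 6 (below 0 in 2 of 11 at a resolution of 0.6), *Cxcl3* below 0 in 5 of 6, of which 1 has an interval that includes 0 (below 0 in 8 of 11 at 0.6), and *Pf4* on either side; without scaling, the ratios of *Cxcl2* and *Pf4* in all macrophage-like cells turn to -0.09 and -0.27, and with subclusters weighted alike that of *Pf4* turns to -0.10.

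The mix of macrophage-like cells differed between the groups. Cluster 1 (led by *Cxcl9*, *Serpina3g* and *Iigp1*), where *Cxcl1* was at 166 CPM, held 1466 control and 498 telmisartan cells, and cluster 2 (led by *Areg*, *Il1a* and *Fpr1*), where it was at 988, held 716 and 1138. Cluster 4 (led by *Ifit3*, *Ifit2* and *Ifit1*), at 389 CPM of *Cxcl1*, held 448 and 827, and cluster 5 (led by *Serpinb2*, *Hmox1* and *Ptges*), the macrophage-like cluster richest in all 3 ligands (*Cxcl1* at 1754), held 356 and 509. Telmisartan thus had more cells of the *Cxcl1*-rich clusters 2 and 5 and fewer of the poor cluster 1, but also more of cluster 4, which was below the 603 CPM of the class. Within cluster 2 *Cxcl3* was at 1186 CPM in control and 298 in telmisartan (log2 ratio -1.99) and *Cxcl2* at 7463 and 5278 (-0.50), whereas in cluster 1 both were higher in telmisartan (0.44 and 0.36). *Cxcl1* was higher in telmisartan in each of the 6 macrophage-like clusters, from 0.25 in cluster 2 to 1.70 in cluster 4. With each subcluster given the same weight in both groups, the log2 ratios were 0.98 for *Cxcl1*, 0.21 for *Cxcl2* and -0.98 for *Cxcl3*, and with each cluster weighted alike 0.74, 0.02 and -1.32. *Cxcl1* and *Cxcl3* thus kept opposite directions under either weighting, whereas *Cxcl2* was level with the mix of clusters held equal. The median mitochondrial share was 7.21% of UMIs in control and 8.15% in telmisartan macrophage-like cells, and median depth 8975.5 and 6459 UMIs.

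Across 12 profiles (6 subclusters in 2 groups) the level of *Cxcl2* ran with that of *Cxcl3* (Pearson r = 0.92, n = 12) and of *Cxcl1* (r = 0.87), and *Cxcl1* with *Cxcl3* less closely (r = 0.73). The nearest genes among 10304 were *Il6* (r = 0.98) and *Clec4d* (0.98) for *Cxcl2*, *Tnfrsf23* (0.97) and *Anxa2* (0.96) for *Cxcl3*, and *Fam107b* (0.95) and *Tnfsf9* (0.95) for *Cxcl1*. The nearest genes named thus differed between the ligands, but differences in r between ligands were not tested. Clusters of at least 50 kept cells were also used, which left out a T-like cluster of 44 cells. Over these 11 clusters, *Cxcl2* ran with *Cxcl3* (r = 0.94) and *Cxcl1* less closely with *Cxcl2* (0.62) and *Cxcl3* (0.60). There *Cxcl3* ran closest with *Slpi* (r = 0.98) and *F3* (0.96), *Cxcl2* with *Rnf149* (0.99) and *Irak3* (0.99), and *Cxcl1* with *Sptlc2* (0.93).

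In the 71 neutrophil-like cells (47 control, 24 telmisartan), *Cxcl2* was at 41981 CPM in control and 40493 in telmisartan, a log2 ratio of -0.05 (-0.13 to 0.03). *Cxcl3* was at 9046 and 4104, a ratio of -1.14 (-1.37 to -0.91), and of -1.29 without the richest cell of each group. *Cxcl3* was thus lower in telmisartan in both classes that expressed it most, while *Cxcl2* was level in neutrophil-like cells. The summed level of 10 neutrophil markers in these cells was 17049 CPM in control and 11319 in telmisartan, with *S100a9* the most abundant and *Ly6g* at 0.

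In dendritic-like cells, *Cxcl1* was at 63.9 CPM in control and 45.2 in telmisartan, a log2 ratio of -0.50 (-0.87 to -0.14). That value rested on 1 control cell with 50 of 184 UMIs. It was -0.27 (-0.68 to 0.14) without the richest cell of each group and 0.03 without doublet removal, and thinned cells with *Cxcl1* were 2.22% of control and 5.39% of telmisartan cells. *Cxcl2* was at 1006 and 821 CPM there, a ratio of -0.29 (-0.38 to -0.21) that turned to 0.12 when tag calls needed 90% of reads. No direction can be read for either ligand in this class. Of 3 of the 5 genes with at least 100 UMIs in it, 0 passed 1.5-fold, where 3.82% of its 5837 genes were higher and 3.38% lower.

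*Cxcr2*, the receptor, marked the neutrophil-like cells although it had no part in naming them. It stood at 679 CPM there (549 to 831), 519 times the 1.31 of macrophage-like cells, with 1.00 in dendritic-like and 1.12 in T-like cells. A *Cxcr2* UMI was found in 45.1% of neutrophil-like cells (32 of 71; median 1746 UMIs) and in 0.538% of T-like cells (median 3264.5). These cells, 0.792% of the total, held 50.3% of all *Cxcr2* UMIs, and macrophage-like cells held 46.5% at a level near that of the other classes. Of the 64 macrophage-like cells with *Cxcr2*, 20.3% had at least 3 UMIs of neutrophil markers, against 7.86% of those without. These shares are not at equal depth (median 9530.5 UMIs with *Cxcr2* and 7545 without). *Cxcr1*, the related receptor, had 2 UMIs in all kept cells.

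Between the groups, neutrophil-like *Cxcr2* was at 736 CPM in control (67 UMIs, 23 of 47 cells) and 571 in telmisartan (27 UMIs, 9 of 24 cells), a log2 ratio of -0.36 (-1.07 to 0.30). Macrophage-like *Cxcr2* rested on 48 and 39 UMIs, a ratio of 0.13 (-0.52 to 0.77) that turned to -0.28 without scaling, and 1 control cell held 17 of them. Without the richest cell of each group the macrophage-like ratio was 0.69 (-0.04 to 1.42) and the neutrophil-like -0.69 (-1.54 to 0.10), and without the richest 3 they were 0.83 (0.04 to 1.64) and -1.08 (-2.31 to -0.02). Single cells thus moved the *Cxcr2* ratios widely, and no direction is read from them.

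*Pf4* was highest in macrophage-like cells, at 733 CPM (726 to 739), which held 99.3% of its UMIs, against 172 in T-like and 27.3 in dendritic-like cells. The 398 CPM of neutrophil-like cells came from 55 UMIs, of which 49 lay in 1 control cell. Within macrophage-like cells *Pf4* peaked not with the ligands but in subcluster 2, led by *Gas6*, *Atp6v0d2* and *Ms4a14*, at 1908 CPM, against 264 in subcluster 1. It was next highest in subcluster 5 (786 CPM), and *Cxcl1* in subcluster 2 (705). The correlation of *Pf4* over the 12 profiles was 0.39 with *Cxcl1*, 0.09 with *Cxcl2* and 0.17 with *Cxcl3*, and over the 11 clusters, which span all classes, 0.81, 0.68 and 0.63. Its nearest genes were *Slc27a1* (0.95) and *Sbf2* (0.95), with *Cd93* (0.98) and *Ctsl* (0.98) over the 11 clusters. *Pf4* and the 3 ligands thus peaked in different macrophage subclusters. Over clusters of all classes they ran together, but with the neutrophil-like *Pf4* level that rested on 1 cell included. Without the richest cell of each group that level was 48.6 CPM in control and 22.2 in telmisartan, and r without these cells was not computed.

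*Pf4* differed little between the groups in macrophage-like cells as a whole, with 702 CPM in control and 774 in telmisartan. The log2 ratio of 0.14 (0.11 to 0.17) turned to -0.27 without scaling and to -0.10 with subclusters weighted alike, and was 0.0018 with clusters weighted alike. It was lower in telmisartan in subclusters 5 (997 and 606 CPM, ratio -0.72) and 2 (2044.5 and 1778, -0.20) and higher in subclusters 6 (0.56), 3 (0.27) and 1 (0.22). The whole thus joined opposite differences. *Ppbp*, the neighboring platelet gene and also a CXCR2 ligand, was at 20.7 CPM in control and 9.92 in telmisartan. Its log2 ratio was -1.06 (-1.26 to -0.86), and -1.04 without the richest cell of each group. Thinned cells with *Ppbp* were nevertheless 0.823% of control and 0.943% of telmisartan cells. *Pf4* was above *Ppbp* in both groups.

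Of the 5 genes, 4 lie on the plus strand of chromosome 5 (GRCm38) within 147 kb of the same cluster, in the order *Cxcl5*, *Ppbp*, *Pf4*, *Cxcl3*, *Cxcl15*, *Cxcl1*, *Cxcl2*, and *Cxcr2* lies on chromosome 1. *Cxcl1* and *Cxcl2*, higher on CPM (*Cxcl2* at -0.09 without scaling), sit at the far end, 88.2 kb beyond *Cxcl15*, whereas *Cxcl3* and *Ppbp*, both lower, flank *Pf4*. *Cxcl5*, at the near end, had 8 UMIs in control and 37 in telmisartan, of which 22 came from 1 cell. *Cxcl1* and *Cxcl3*, of the same locus, thus differed in opposite directions. The mature transcripts of *Cxcl2* and *Cxcl3* share 61 stretches of 50 bases, all at least 850 bases from the 3′ end, and neither *Cxcl1* nor *Pf4* shares any with another gene.

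**Figure D4:**
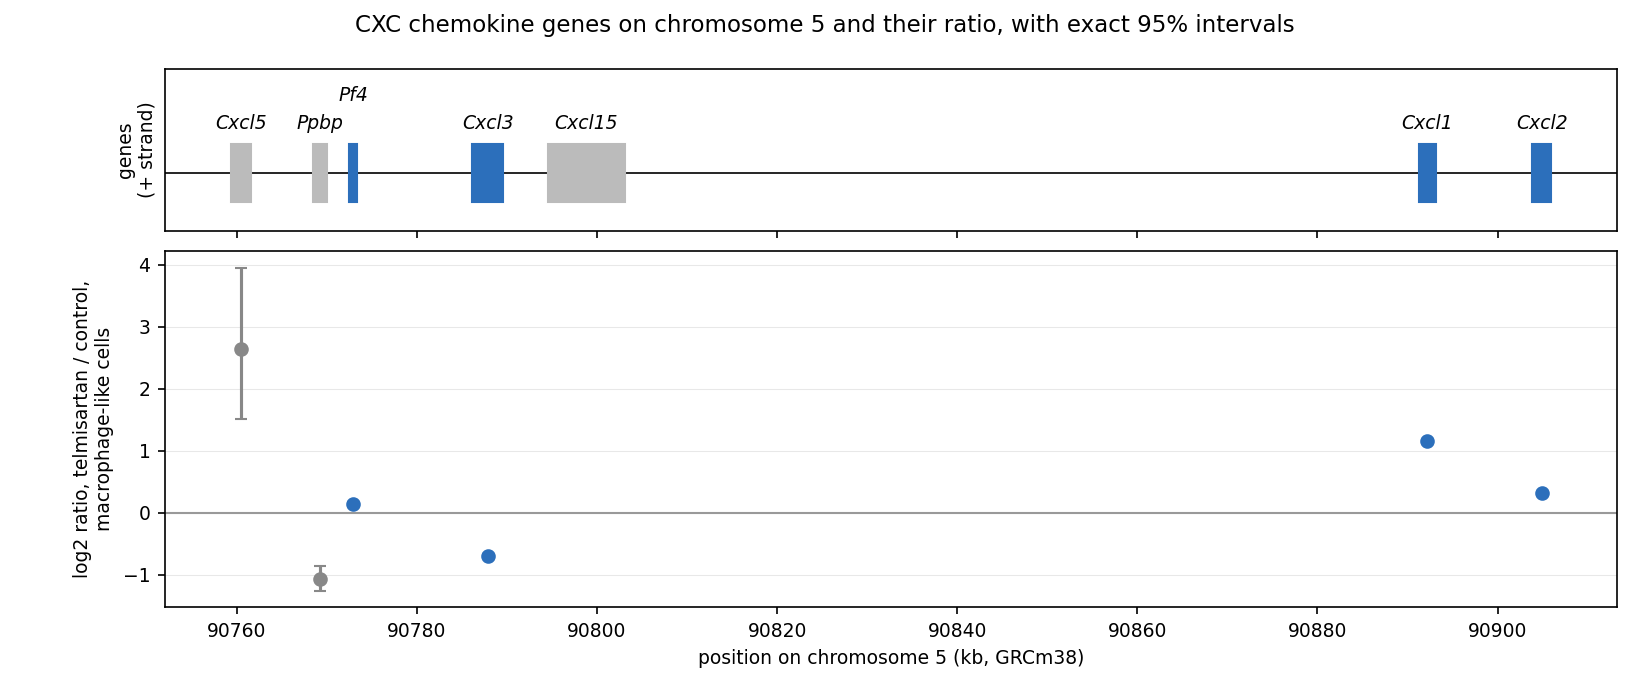
Chemokine genes of the plus strand of chromosome 5 to scale (kb, GRCm38; *Pf4* and the 3 ligands in blue, neighbors in gray) and, under each, the log2 ratio of telmisartan to control in macrophage-like cells on CPM with its exact 95% interval; *Cxcl15*, with 3 UMIs, has no point. *Cxcl1* (1.15) and *Cxcl2* (0.32, and -0.09 without scaling) lie apart from *Cxcl3* (-0.69) and *Ppbp* (-1.06), and *Pf4* (0.14, and -0.27 without scaling) lies between the latter. The highest point is that of *Cxcl5* (2.64, 1.52 to 3.95), beside *Ppbp*, on 8 UMIs in control and 37 in telmisartan.

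The promoters of the 3 ligands are shown because they share a pair of runs that *Pf4* and *Cxcr2* lack. Within 250 bases before the RefSeq start they have 2 runs of at least 8 bases in common, in capitals. These are GGGAATTTCCC (GGGAAATTCCC on the other strand), which holds the form of an NF-kB site, and ATAAAAGG (CCTTTTAT), which is near that of a TATA box but lacks its leading T, found before the run in *Cxcl3* alone. They begin 71 and 34 bases before the start in *Cxcl1*, 97 and 57 in *Cxcl2* and 73 and 29 in *Cxcl3*. Of 32851 promoters, 0.0426% have the former, 1.54% the latter, and 3 have both, those of the ligands from which the runs were taken. A match describes the sequence and does not show that a site is used. *Cxcl1* and *Cxcl3*, with opposite differences, thus share these letters. The sequences are on the plus strand of GRCm38.p6, at chr5:90890995-90891244 (*Cxcl1*), chr5:90903649-90903898 (*Cxcl2*) and chr5:90785851-90786100 (*Cxcl3*).
Cxcl1: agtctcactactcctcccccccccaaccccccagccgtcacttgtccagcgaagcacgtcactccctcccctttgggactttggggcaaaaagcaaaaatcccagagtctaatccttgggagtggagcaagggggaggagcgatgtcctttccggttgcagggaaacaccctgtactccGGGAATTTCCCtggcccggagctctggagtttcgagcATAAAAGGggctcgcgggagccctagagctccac
Cxcl2: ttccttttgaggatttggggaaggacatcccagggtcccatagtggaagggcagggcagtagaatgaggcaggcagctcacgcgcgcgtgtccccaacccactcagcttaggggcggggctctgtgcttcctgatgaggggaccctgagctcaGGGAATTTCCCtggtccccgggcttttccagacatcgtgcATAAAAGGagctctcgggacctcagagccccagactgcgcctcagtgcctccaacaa
Cxcl3: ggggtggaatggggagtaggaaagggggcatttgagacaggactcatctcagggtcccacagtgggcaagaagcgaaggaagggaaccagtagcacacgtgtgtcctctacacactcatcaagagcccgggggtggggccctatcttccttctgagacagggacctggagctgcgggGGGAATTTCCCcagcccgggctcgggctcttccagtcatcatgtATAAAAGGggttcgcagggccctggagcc

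The 3′ untranslated regions set the ligands apart. TATTTAT, a form of the AU-rich element, occurs 6 times in *Cxcl1*, 7 times in *Cxcl2*, 2 times in *Cxcl3* and not in *Cxcr2* or the short region of *Pf4* (123 bases, against 990 in *Cxcr2* and 592 to 734 in the ligands). Its core ATTTA occurs 11.8 times per 1000 bases in *Cxcl1*, 15.0 in *Cxcl2*, 7.75 in *Cxcl3*, 2.02 in *Cxcr2* and, from 1 copy, 8.13 in *Pf4*. TATTTAT lies within the first 300 bases of the region in *Cxcl1* and *Cxcl2* but not in *Cxcl3*, and in 6.84% of 14859 genes with a region at least that long. *Cxcl3* thus has fewer copies than the other ligands, set farther from the stop codon.

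Genes that act around these chemokines were read beside them in macrophage-like cells, where 4.77% of all genes were at least 1.5-fold higher and 2.24% lower (1.29% and 28.96% without scaling) and 42.8% higher by any amount. The gene lists were chosen with earlier results of these data known. Of 15 inducers through NF-kB, 5 were so higher and 0 lower (median log2 ratio 0.36), but 0 and 3 without scaling, with *Rel* at 0.90 and *Tlr4* at -0.50. Of 10 inhibitors of NF-kB or factors of mRNA decay, 5 were higher and 0 lower (median 0.51), but 1 and 3 without scaling, with *Nfkbie* at 1.36 and *Tnfaip3* at 0.71. Unscaled, the 2 medians were -0.05 and 0.10, or 0.41 and 0.56 over the median gene. Both medians thus lay above the median gene, with 11 of 15 and 6 of 10 genes higher on CPM by any amount, but the latter list was split, with *Zfp36*, *Zfp36l1*, *Zfp36l2* and *Dusp1* between -0.26 and -0.14. Of 10 genes of CXCR2 signaling 0 passed 1.5-fold (median -0.08). Of 9 genes for heparan sulfate synthesis or for proteoglycans that bind PF4 also 0 passed it (median -0.02). Without scaling 3 of each were lower. Of 4 CXCR2 ligands with at least 100 UMIs, 1 (*Cxcl1*) was at least 1.5-fold higher and 2 (*Cxcl3* and *Ppbp*) lower. Their median was -0.19, and the counts were the same without scaling but 1 and 0 on the ln scale.

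Of 17 other chemokine genes 5 were at least 1.5-fold lower and 0 higher (9 and 0 without scaling; median -0.23, and -0.06 on the ln scale, above the median gene there), with *Ccl24* at -2.42, *Ccl17* at -2.10 and *Cxcl9* at -1.13. By any amount 5 were higher, where 42.8% of all genes were, up to 0.49 for *Ccl4*, so that *Cxcl1* (1.15) lay above each of them on CPM. Of 4 genes for neutrophil production and retention with enough UMIs, 2 were at least 1.5-fold higher (1 without scaling; median 0.72), and *Csf3*, which drives neutrophil output, had 37 UMIs in control and 84 in telmisartan. Of 12 immediate-early and heat shock genes, listed after values were seen, 1 was at least 1.5-fold higher and 0 lower (0 and 4 without scaling). Their median was 0.13, and 7 were higher by any amount, against 42.8% of all genes. Markers of other cell types also differed in macrophage-like cells. Of 5 neutrophil markers with at least 100 UMIs, 2 were lower, *S100a8* (-0.74) and *S100a9* (-1.13). The other 3 were higher, *Hdc* (1.33), *Csf3r* (0.45) and *Mmp8* (0.36), and the median was 0.36. All 10 neutrophil markers summed to 92.98 CPM in control and 111 in telmisartan, with *Mmp8* the most abundant. Fibroblast markers were at 8.25 and 14.4 CPM and erythroid markers at 4.32 and 0.918. Whether RNA or cells of other types, the treatment, the pooled mice or cell handling underlie any of these differences was not tested, and differences between the groups cannot be told apart from differences between their pools.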

How the data were processed

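CD45+ cells of 2 pools of 5 mice (6 to 8 weeks old; vehicle or telmisartan at 5 mg/kg daily into the stomach, harvest on day 13) were measured in 1 BD Rhapsody capture. The authors counted UMIs per gene and cell with the BD Rhapsody WTA pipeline (version 1.11, GRCm38, GENCODE M19), and the deposited values are these UMI counts and, in the other table, Sample Tag read counts of 12 tags. It was checked that both list the same 20726 cells. Sample Tag 1 marked control and Sample Tag 2 telmisartan. A cell needed at least 10 tag reads with at least 75% from 1 tag, 150 to 5000 genes and at most 20% mitochondrial UMIs. Scrublet (scanpy 1.11.5, Python 3.11.15, numpy 2.4.6, scipy 1.17.1, pandas 2.3.3) marked 0 cells by its own threshold, so the 942 cells of highest score (9.51%, the share that the tag multiplets imply) were removed. This left 4535 control cells (41591125 UMIs, median 8689) and 4434 telmisartan cells (30921742 UMIs, median 6357.5).

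Clusters were made in Seurat 5.3.0 under R 4.3.3 from 2000 variable genes without the 5 genes studied, with 30 principal components, 20 neighbors and a resolution of 0.5, and those called macrophage-like were split further, raising the resolution in steps of 0.05 until 6 subclusters appeared (0.35). A cluster was named after a class when at least 3 of that class's markers were at least 4-fold higher than elsewhere. Each such marker needed at least 10 UMIs in the cluster and a UMI in at least 10% of its cells. Other clusters were called macrophage-like when at least 3 macrophage markers met those 2 detection limits. A shallow cluster with no marker of its class among its 10 leading genes could be left unnamed. UMIs were summed by class and group and divided by the total (CPM). Exact Poisson (levels), Clopper-Pearson (shares) and conditional binomial (ratios) intervals were computed, and the comparison was tested on simulated data. Genes with at least 100 UMIs were compared at 1.5-fold. No paired analysis was possible because each group was 1 pool. T-like cells (72 control, 114 telmisartan) were compared between groups but are not discussed above. The reason was their larger cluster, whose 10 leading genes held 1 natural killer cell marker (*Eomes*) and no T cell marker. The T-like log2 ratio was 1.53 (0.60 to 2.56) for *Cxcl1*, on 13 control and 39 telmisartan UMIs. That of *Cxcl2* was -0.60 (-0.89 to -0.31), on 251 and 172 UMIs, with 113 of the 251 in 1 control cell. *Cxcl3* was at -0.40 and *Pf4* at -0.34, with intervals that include 0. No direction is read from these values.

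The genes named are the 5 members, genes of written lists, and the 5 most correlated with each member on log2(CPM + 10) among genes with at least 200 UMIs, of which some are discussed. The members and lists were chosen with earlier results of these data known. The immediate-early and heat shock list, the leading genes of clusters and the shared promoter runs were chosen after values were seen. Gene positions and transcripts are from GENCODE M21 and promoters from RefSeq. Alternatives covered tag share, gene, mitochondrial and doublet limits, clustering, scaling (with edgeR 4.0.16), depth and class borders. Figures were drawn in matplotlib 3.10.9. Tumor growth was not analysed here.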

Additional observations from a re-analysis of the deposited data

Results flagged for a closer look

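In macrophage-like and dendritic-like cells the log2 ratios of telmisartan to control had opposite signs for *Cxcl1* (1.15 and -0.50) and for *Cxcl2* (0.32 and -0.29), with intervals that exclude 0. The differences between the classes were not tested, and both dendritic-like values change sign under another setting (*Cxcl1* 0.03 without doublet removal, *Cxcl2* 0.12 with tag calls at 90% of reads).

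Cells left out for a mitochondrial share over 20% (3586 of 8738 control and 5373 of 10222 telmisartan cells called by tag) also carried the ligands. Their log2 ratios were 0.85 for *Cxcl1*, 0.21 for *Cxcl2* and -0.43 for *Cxcl3*, the same signs as in macrophage-like cells on CPM.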

How the results depend on the processing

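Over 388 alternative values, 258 stayed within the interval of the reported value, 124 moved outside it and 6, whose reported interval excludes 0, changed sign. Another 11 changed sign where the reported interval includes 0, and are counted as stayed or moved. Intervals of counts this large are narrow, so small shifts count as moved. Alternatives for dendritic-like and neutrophil-like ratios, subclusters or clusters weighted alike, leaving out the richest cell and counting the dendritic-like cluster highest in *H2-Ab1* as macrophage-like were chosen after seeing the data. Counting dendritic-like clusters led by MHC class II genes as macrophage-like could not be run, as no such cluster has those genes among its 10 leading ones. The cause of each shift was not tested.

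In macrophage-like cells, log2 ratios that moved are given for *Cxcl1*, *Cxcl2*, *Cxcl3*, *Pf4* and the sum of the 3 ligands. Without scaling they were 0.74, -0.087, -1.10, -0.27 and -0.066, so *Cxcl2*, *Pf4* and the sum changed sign. Subclusters weighted alike gave 0.98, 0.21, -0.98, -0.10 and 0.21, with *Pf4* changing sign, and clusters weighted alike 0.74, 0.016, -1.32, 0.0018 and 0.00091. The mean of ln(1 + UMIs per 10000) gave 0.84, 0.22, -0.14, 0.064 and 0.23. The mean of UMIs per 10000 gave 1.00 (*Cxcl1*), -0.76 (*Cxcl3*), 0.023 (*Pf4*) and 0.31 (sum), and thinning 1.01, -0.80, 0.0013 and 0.31. At 10% mitochondrial UMIs the values were 0.37 (*Cxcl2*), -0.64 (*Cxcl3*), 0.28 (*Pf4*) and 0.38 (sum), and without the cluster of lowest depth 0.29, -0.65, 0.17 and 0.33. Tag calls at 90% gave 0.34 (*Cxcl2*), -0.63 (*Cxcl3*) and 0.37 (sum), and no doublet removal 0.29 (*Cxcl2*), 0.11 (*Pf4*) and 0.31 (sum). The sum was 0.35 on totals without mitochondrial and ribosomal protein genes and 0.33 with TMM factors. *Cxcr2*, on few UMIs, was 0.78 with tag calls at 90%, 0.83 as the mean of UMIs per 10000, 2.62 after thinning (1 and 6 cells) and -0.28 without scaling (sign changed).

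In dendritic-like cells *Cxcl1* was -1.38 at 10% mitochondrial UMIs and 0.033 without doublet removal (sign changed). *Cxcl2* was 0.12 with tag calls at 90% (sign changed), -0.39 at 500 genes, -0.71 at 10% mitochondrial UMIs and -0.38 without the richest cells. *Cxcl3* (reported 0.29) changed sign to -0.61 with tag calls at 90%, -1.28 at 10% mitochondrial UMIs, -1.74 without doublet removal and -0.0088 with the 5 genes kept in clustering. *Pf4* (reported -0.061) was -0.94 without doublet removal and changed sign to 0.12 with tag calls at 90%, 0.011 at 500 genes and 0.054 with the 5 genes kept. In neutrophil-like cells *Cxcl2* (reported -0.052) changed sign to 0.14 with tag calls at 90%, 0.055 without doublet removal and 0.032 with the 5 genes kept in clustering. There *Cxcl3* (reported -1.14) was -0.89 with tag calls at 90%. *Pf4* (reported -3.78, -6.86 to -1.86, on 53 and 2 UMIs) was -0.60 without doublet removal and -1.13 without the richest cells.

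Of the levels, macrophage-like *Cxcl1* was 623 CPM at 10% mitochondrial UMIs, 589.8 without doublet removal, 597 and 611 at resolutions of 0.3 and 0.8 and 623 after thinning. Macrophage-like *Pf4* was 672, 722, 725, 744 and 703 in the same order, and 759.6 with tag calls at 90%. Neutrophil-like *Cxcl2* was 34300 CPM without doublet removal, 39898 with the 5 genes kept and 42592 after thinning, *Cxcl3* 5854 without doublet removal and 6789 after thinning, and *Cxcr2* 535 after thinning.

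Genes at least 1.5-fold higher and lower numbered 4799 and 3844 without a filter, 237 and 52 at 1000 UMIs, 289 and 566 on the ln scale and 143 and 3207 without scaling.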

Other observations

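*Cxcl5*, a further CXCR2 ligand of the same locus, had 43 of its 45 UMIs in subcluster 5, the one richest in the 3 ligands (7 in control, 36 in telmisartan), and lay in 8 cells. *Csf2*, a growth factor of granulocytes and macrophages, had 2 UMIs in control and 23 in telmisartan macrophage-like cells.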
